A study of Mus musculus with 2 samples.

Results

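The circadian clock genes described here are 10 genes chosen by name: the period genes Per1, Per2 and Per3, the cryptochrome genes Cry1 and Cry2, the REV-ERB genes Nr1d1 and Nr1d2, the output factor gene Dbp, the activator gene Clock and the repressor gene Bhlhe40. They are 10 of 17874 genes that the array table named, and all 10 were measured, each by 1 probe set (a group of oligonucleotides that gives 1 value). The cells were CFU-E cells (colony-forming unit erythroid), red cell progenitors that normally depend on erythropoietin, sorted by removal of other cell types from pools of 40 to 50 fetal livers of EpoR-/- BALB/c embryos at gestational day 13.5. Both samples came from embryos without the erythropoietin receptor, per the protocol, and both were kept for 1 h without growth factors. One was then lysed at once (0 h, 1 array), and the other was cultured in Panserin medium until lysis at 3 h (1 array). The genotype label names Epo rather than its receptor, the strain label is given only for the 0 h sample, and the 3 h treatment label mentions growth factor supplements although, per the protocol, none were added. The time of day of dissection, and whether both samples came from 1 pool of livers, is not stated in these sources. There was 1 array at each time, so no difference below has an error, a test or a p-value, and precision is limited by that number.

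The mammalian clock is a loop of transcription and its repression. CLOCK (or its relative NPAS2) pairs with BMAL1, the product of Arntl, binds E-box motifs and activates the Per, Cry, Nr1d, Dbp and Bhlhe40 genes. PER and CRY proteins then block this activator, while REV-ERB proteins, encoded by Nr1d1 and Nr1d2, repress Arntl through elements they share with the ROR activators. DBP, TEF and HLF activate genes through D-boxes, and NFIL3 represses through the same sites. Per1 and Per2 are also induced directly by cAMP, growth factor and glucocorticoid signals, apart from the daily loop. Hepatocytes express this loop and its output factors strongly in the adult.

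The regulatory windows of 4 of these genes are shown because they hold the motifs through which the loop acts on itself, or, for Dbp, none of those searched. Each is the 250 bases before the RefSeq gene start in GRCm38.p6, written 5′ to 3′ on the gene's strand. Capitals mark the motif matches. The Cry1 window lies at chr10:85185055-85185304 (minus strand), Cry2 at chr2:92434070-92434319 (minus strand), Per3 at chr4:151044666-151044915 (minus strand) and Dbp at chr7:45704997-45705246 (plus strand).
Cry1: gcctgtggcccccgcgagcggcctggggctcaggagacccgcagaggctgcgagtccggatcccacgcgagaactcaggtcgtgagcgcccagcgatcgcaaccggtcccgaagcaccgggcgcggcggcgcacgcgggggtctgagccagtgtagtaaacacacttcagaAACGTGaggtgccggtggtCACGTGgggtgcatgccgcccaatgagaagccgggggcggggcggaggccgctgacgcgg
Cry2: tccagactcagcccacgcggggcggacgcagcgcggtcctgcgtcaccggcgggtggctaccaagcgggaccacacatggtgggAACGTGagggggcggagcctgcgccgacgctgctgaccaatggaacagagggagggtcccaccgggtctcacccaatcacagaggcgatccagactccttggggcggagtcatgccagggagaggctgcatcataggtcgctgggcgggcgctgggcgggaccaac
Per3: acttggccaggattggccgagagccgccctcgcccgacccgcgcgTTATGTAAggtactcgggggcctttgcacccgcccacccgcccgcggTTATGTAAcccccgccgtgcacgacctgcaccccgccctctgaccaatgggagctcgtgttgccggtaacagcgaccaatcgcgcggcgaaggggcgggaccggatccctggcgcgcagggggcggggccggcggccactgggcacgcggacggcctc
Dbp: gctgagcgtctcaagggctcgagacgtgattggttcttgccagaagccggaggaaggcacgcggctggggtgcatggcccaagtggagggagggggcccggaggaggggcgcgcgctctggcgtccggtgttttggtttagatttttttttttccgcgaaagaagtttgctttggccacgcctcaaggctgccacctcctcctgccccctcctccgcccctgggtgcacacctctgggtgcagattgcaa

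The motifs searched, on both strands, were the E-box CACGTG, the E′-box CACGTT, the D-box TTATGTAA, the REV-ERB/ROR element TAGGTCA and the cAMP response element TGACGTCA. RefSeq windows were at hand for 8 of the 10 genes, 11 windows in all, since Per1 has 2 starts and Clock 3. Per2 and Bhlhe40 had no entry. A match was found in 5 of the 11 windows, and no match overlapped another. Cry1 held an E′-box from 79 to 74 bases before its start, on the opposite strand, and an E-box from 60 to 55 bases before it. The first Per1 window held 1 E-box, and Cry2 and Nr1d1 held 1 E′-box each. Per3 held 2 D-boxes, which begin 205 and 158 bases before its start. Of all 32851 RefSeq windows of this length, 6.02% held an E-box, 3.85% an E′-box, 0.819% a D-box, 2.23% the REV-ERB/ROR element and 1.55% the cAMP response element. The windows of Nr1d2, Dbp and Clock held none of the 5 motifs. That says only that these letters are not in those 250 bases, and sites outside this window were not searched. A match describes the sequence and is not evidence that a factor bound there in these cells.

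**Figure D1:**
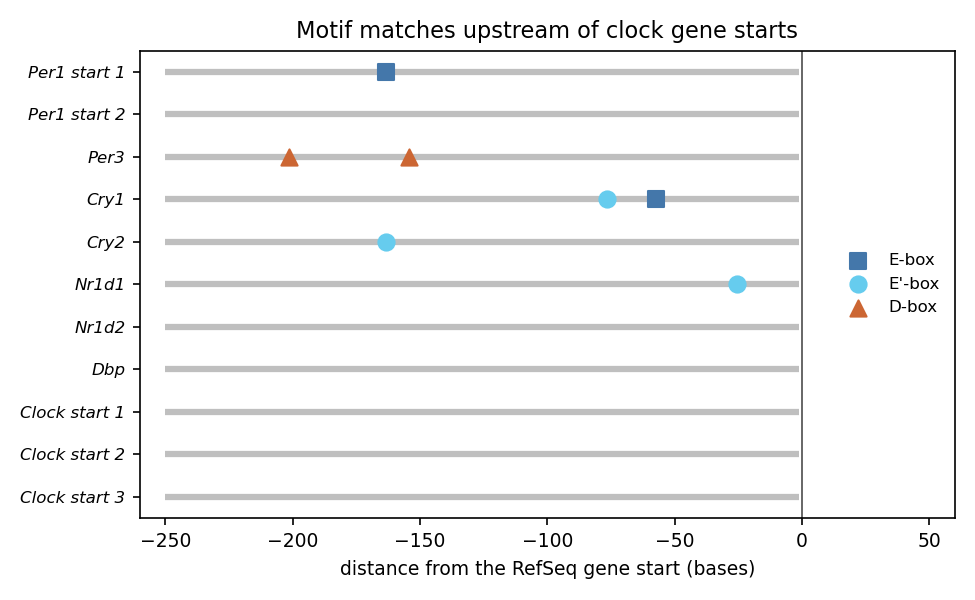
Positions of motif matches in the 250 bases before each RefSeq start, in bases from the start (horizontal axis), for 8 clock genes and 11 starts (rows); squares are E-boxes, circles E′-boxes and triangles D-boxes. Matches lie in 5 windows, and the 2 D-boxes are both in Per3.

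Like most genes, the clock genes differed little between the arrays. Of the 10, 7 reached the floor of 5.70 on the log2 scale on at least 1 array (the floor is the median of all gene values, and a signal below it is near background). In these 7, 5 were lower at 3 h and 2 higher, with a median difference of -0.25 (3 h minus 0 h, log2), against a median of 0.01 over all 9284 genes at or above the floor. All 7 reached the floor at 0 h and 6 at 3 h. Dbp reached it at 0 h alone, so it could only count as lower, and it enters the median. No clock gene at or above the floor differed by 1.5-fold in either direction. Among all genes 4.80% were at least 1.5-fold lower and 6.94% at least 1.5-fold higher, 11.7% together, so that under 1 call would match that share in 7 genes. A count of 0 of 7 is therefore near the background and is not a result about the clock genes. At least 2-fold, 0.872% of all genes were lower and 2.00% higher. The robust SD of the difference over all genes was 0.31, and 3 of the 7 clock genes (Cry2, Bhlhe40 and Dbp) exceeded it in size, as did 34.7% of all genes, so that this count too is near the background. With members below the floor included, 8 of 10 were lower and the median was -0.21. For comparison with the 5 of 7, the difference was negative for 48.5% of the 9284 genes. With 7 clock genes and 1 array per time, the count was not tested against that share.

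The activator and the cryptochromes were as follows. Clock, which encodes the DNA-binding partner of BMAL1, had log2 levels of 6.26 at 0 h and 6.56 at 3 h, 1.23-fold higher. Its difference of 0.30 was the highest of the 10, and 80.5% of all genes at or above the floor had a lower difference. Cry1, a repressor of CLOCK and BMAL1, went from 8.59 to 8.68, a difference of 0.09. Its paralog Cry2 went from 8.25 to 7.94, 1.25-fold lower. The Cry1 and Cry2 probe sets thus differed in opposite directions, by 0.09 and -0.32, and 75.9% of genes at or above the floor differed by more than Cry1 and 34.0% by more than Cry2. Both cryptochrome genes were above the floor on both arrays, as was Clock.

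The period genes, whose proteins carry the cryptochromes to the activator, were measured at low levels. Per1 had log2 levels of 6.18 at 0 h and 6.17 at 3 h, and 97.5% of genes at or above the floor differed by more. Per2 (4.45 and 3.87) and Per3 (5.19 and 5.01) were below the floor at both times. The Per2 difference of -0.59, 1.50-fold, was the lowest of the 10, but it lies between values near background, where this kind of signal does not follow the RNA amount closely. Per3 differed by -0.18. Such dim readings do not show that the genes are silent. Among the 3 period genes, then, only Per1 was measured above the floor, and its arrays were within 0.01 of each other.

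The REV-ERB genes encode haem-binding nuclear receptors that repress Arntl. Nr1d2 was above the floor on both arrays, at 9.18 and 8.93, a difference of -0.25 or 1.19-fold lower. Nr1d1 was below the floor on both, at 4.46 and 4.42. Bhlhe40, which encodes a basic helix-loop-helix repressor (DEC1) that competes for E-boxes and also responds to growth factors and hypoxia, went from 7.40 to 7.07, 1.25-fold lower. Dbp, the D-box activator that is a direct target of CLOCK and BMAL1, went from 5.96 to 5.51. It was 1.37-fold lower, the largest difference among the 7, and 8.10% of all genes at or above the floor had a lower difference. Dbp crossed the floor between the arrays, and it was read by a probe set whose suffix (_s_at) marks possible matches to other genes. It was the member nearest above the floor, and Per3 was the nearest below it.

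**Figure D2:**
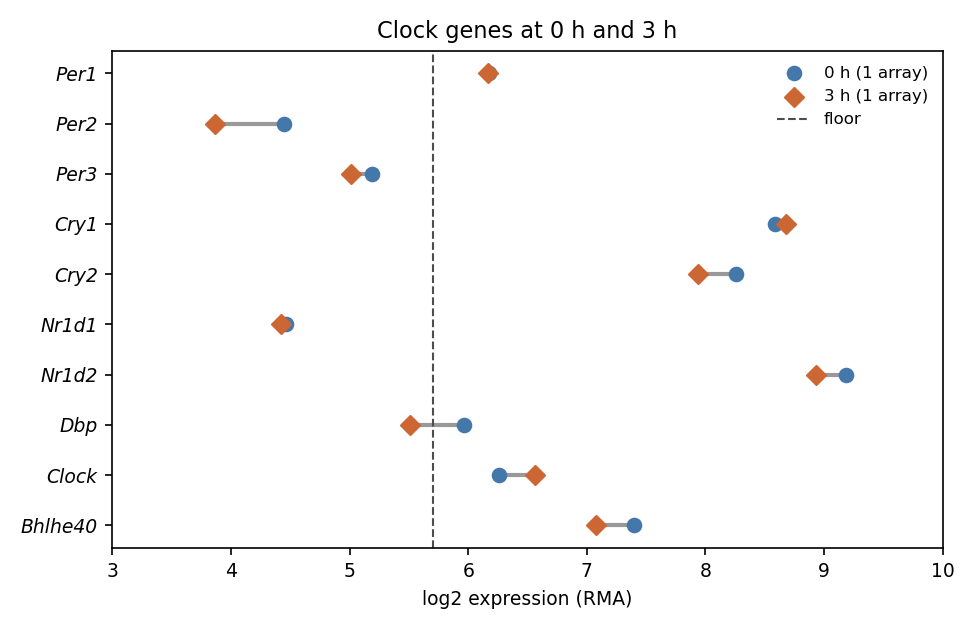
Log2 expression (horizontal axis, RMA values) of the 10 clock genes (rows) on the 0 h array (circles) and the 3 h array (diamonds), 1 array each; the dashed line is the floor of 5.70. Clock and Cry1 lie to the right at 3 h, the other genes to the left, and Per2, Per3 and Nr1d1 lie below the floor at both times.

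**Figure D3:**
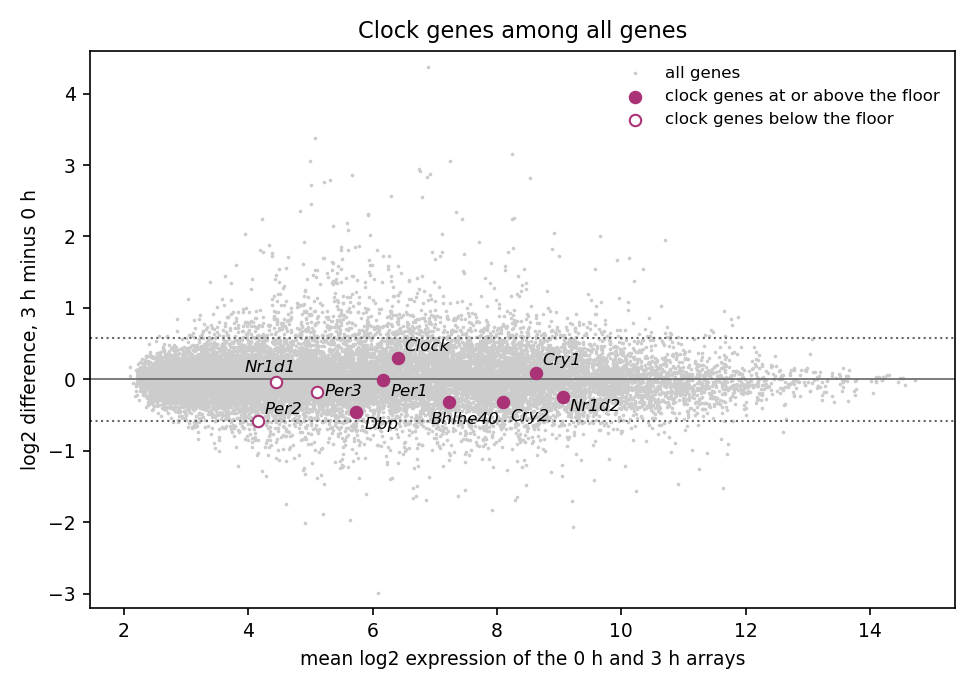
Difference at 3 h minus 0 h (vertical axis, log2) against the mean log2 level of both arrays (horizontal axis) for all 17874 genes (grey) and the 10 clock genes (filled, at or above the floor; open, below it); dotted lines mark 1.5-fold. The 7 clock genes at or above the floor lie between -0.45 and 0.30, inside the dotted lines.

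The other transcription factors of the loop were read from a list of 12, of which 11 were measured and 5 reached the floor. Arntl, the gene of BMAL1, differed by 0.20 (6.91 to 7.11), in the same direction as its partner Clock. Timeless, which acts mainly in DNA replication in mammals, was higher by 0.33. Nfil3, the D-box repressor gene, differed by -0.11 and Ciart, whose product represses CLOCK and BMAL1, by -0.16. Hlf encodes a D-box activator of the DBP family that is also active in blood stem cells. It went from 6.73 to 5.78, 1.94-fold lower, and alone among the 5 passed 1.5-fold, as did 11.7% of all genes at or above the floor. Its relatives Dbp (-0.45, above) and Tef (-0.21, below the floor at 5.64 and 5.43) had differences of the same sign. Npas2 (4.72 and 4.26) and the ROR gene Rora (5.67 and 5.17) were below the floor. The list's median was -0.11 over the 5.

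Enzymes and cofactors that set the stability or activity of PER and CRY proteins were read from a list of 16, with 14 measured and 12 at or above the floor. Of these 7 were higher and 5 lower at 3 h, with a median of 0.13, and 1 of the 12 was past 1.5-fold, no larger a share than the 11.7% of all genes. That gene was Usp2, a deubiquitinase gene whose RNA is rhythmic in many tissues, 1.82-fold lower (6.13 to 5.26, below the floor at 3 h). The kinase genes Csnk1d (0.31) and Csnk1e (0.13), whose products phosphorylate PER proteins, were slightly higher. Csnk1a1, of the same kinase family and averaged over 2 probe sets, differed by -0.39 (6.02 to 5.63, below the floor at 3 h). The NAD-dependent deacetylase gene Sirt1 differed by 0.34 and the histone methyltransferase subunit gene Wdr5 by -0.34.

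Genes with a daily rhythm in many tissues were read from a list of 10, with 9 measured and 7 at or above the floor, 5 lower and 2 higher, with a median of -0.23. Past 1.5-fold was 1 of these 7, near the 11.7% of all genes: Tsc22d3, a glucocorticoid-induced gene (GILZ), 1.66-fold lower (8.20 to 7.47). The transcription factor gene Klf10 differed by -0.35, and Klf9, below the floor on both arrays (4.82 and 3.91), by -0.92. The cold-inducible RNA-binding protein gene Cirbp (7.91 to 8.49, 0.58) and the haem synthesis gene Alas1 (8.34 to 8.82, 0.48) were higher. The clock targets Wee1, a kinase gene of the cell cycle, and the nocturnin gene Noct differed by -0.21 and -0.23. Of genes at or above the floor, 50.1% differed by more than Wee1 and 47.6% by more than Noct.

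Signals that induce Per1 and Per2 outside the loop were read from a list of 12, with 11 measured and 9 at or above the floor, of which 4 were lower and 5 higher. Past 1.5-fold, 2 of these 9 were lower and 1 higher, beside 4.80% and 6.94% of all genes at or above the floor. The immediate early genes Fos (12.40 to 10.87) and Nr4a1 (10.07 to 8.36) are induced by the same kinase and cAMP signals that act on Per1. They were 2.88-fold and 3.27-fold lower, whereas Per1 itself differed by -0.01. Per1 was much dimmer (6.18 and 6.17), and RMA shrinks differences between dim signals, so the sizes are not directly comparable. The serum response factor gene Srf differed by -0.53 and the cAMP-responsive Crem by -0.33. Sik1, a kinase gene induced with Per1 by cAMP, was below the floor (2.38 and 2.43). The glucocorticoid receptor gene Nr3c1 was 1.62-fold higher (7.49 to 8.18). The list's median was 0.02.

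**Figure D4:**
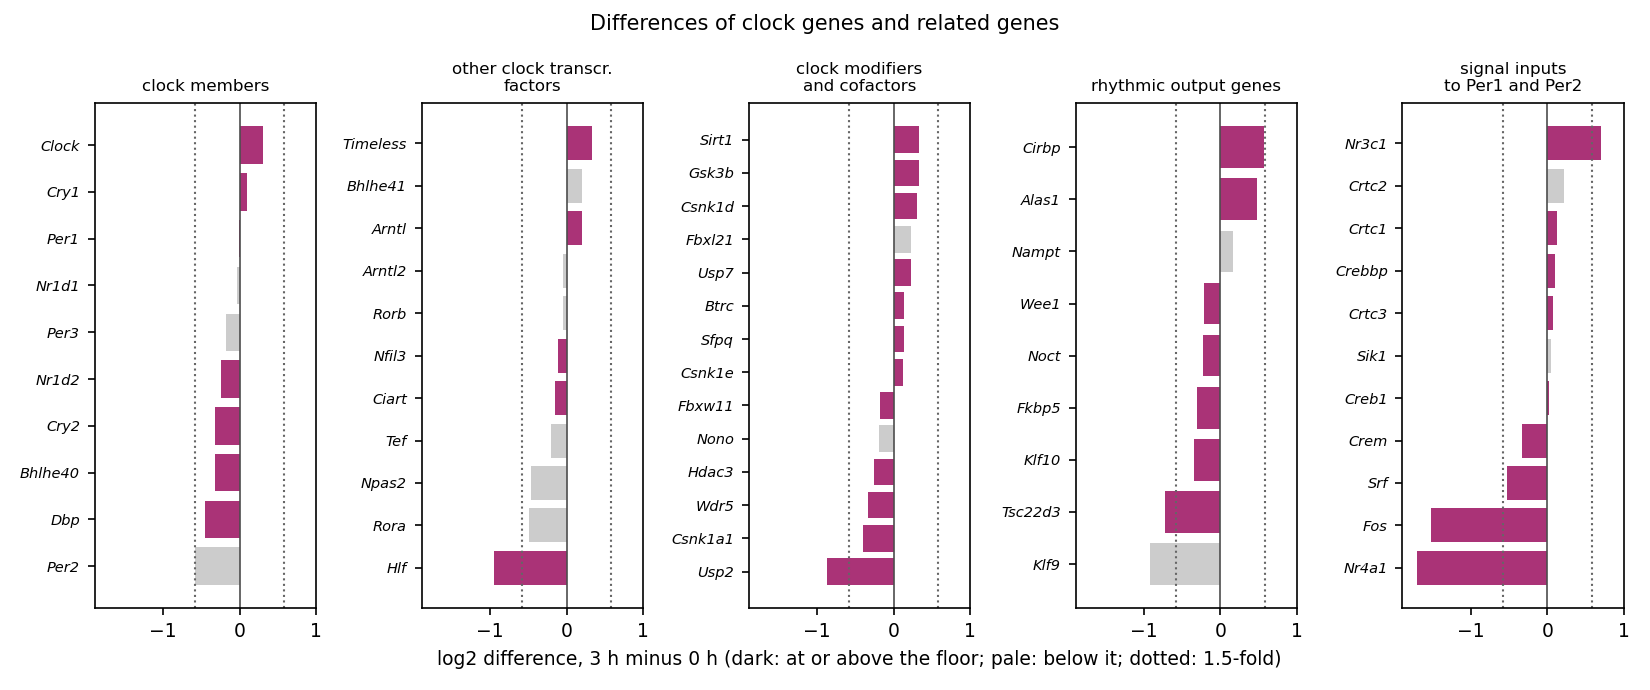
Difference at 3 h minus 0 h (horizontal axis, log2) of each measured gene in 5 lists (panels); purple bars are genes at or above the floor, grey bars genes below it, and dotted lines mark 1.5-fold. The clock genes lie within the dotted lines apart from Per2, which is below the floor and at the line, while Hlf, Usp2, Tsc22d3, Fos, Nr4a1 and, below the floor, Klf9 pass the lower line and Nr3c1 passes the upper one.

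These are values of all cells in a sample, so fewer cells of a type and less RNA per cell cannot be told apart. The erythroid label was checked against its markers, and all 11 measured were at or above the floor on at least 1 array, with Klf1 at 12.03 and Gata1 at 9.32 at 0 h. They were higher at 3 h in 8 of 11, 5 of them past 1.5-fold, with a median of 0.28. Their summed signal was 13.48 at 0 h and 13.85 at 3 h (log2). Of the 9284 genes counted, 6.94% passed 1.5-fold upward, 4.80% passed it downward and 48.5% had a negative difference. The marker counts given here were not tested against these shares. The band 3 gene Slc4a1 was 7.10-fold higher and was below the floor at 0 h (5.47 and 8.30). The 11 include Epor itself, the gene deleted per the protocol, at 7.08 and 6.89. Where its probe set lies relative to the deletion is not known, so these levels do not check the genotype. Hepatocyte markers were also high on both arrays. Of 12 measured, all were at or above the floor and 10 were lower at 3 h, with a median of -0.19, beside a median of -0.25 for the clock genes. Their summed signal was 16.45 at 0 h and 16.39 at 3 h on the log2 scale. The hepatocyte regulator gene Hnf4a (-0.70) and Apob (-0.79) were lower and past 1.5-fold, and Alb differed by -0.19. The keratin genes Krt8 (0.95) and Krt18 (0.88) were higher and past 1.5-fold. Granulocyte markers were higher in 9 of 9 at or above the floor (summed signal 12.66 and 13.60, Ltf below the floor). Of these 9, only 6 reached the floor at 0 h. Camp, Ngp and Lcn2 reached it at 3 h alone, so they could only count as higher. Macrophage markers were higher in 3 of 4 (10.51 and 11.13), with C1qa, C1qb, C1qc, Cd163, Mrc1, Adgre1 and Cd68 below the floor. The exception was Vcam1, 1.97-fold lower (9.22 to 8.25). Over all 11 measured macrophage markers, 6 were higher and 5 lower. The summed signal was 8.10 and 8.52 for megakaryocyte, 8.30 and 8.83 for lymphoid and 8.07 and 8.18 for endothelial markers. The part of these cells in the clock gene values was not tested.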

How the data were processed

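Gene expression was measured on 2 Affymetrix arrays, with biotinylated cRNA made from 1.5 µg of total RNA, per the labels' protocols. The deposited log2 values were made by the authors with RMA and the affy package, per the submitters' processing notes; no versions are stated there. RMA equalises the arrays, so a shift of all transcripts cannot be seen, and it shrinks differences between dim signals.

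The log2 values were used as deposited. Of 20666 probe sets, 17918 had 1 gene in the platform annotation, 79 several and 2669 none; only the first were named. Entrez IDs matched 17767 of them to RefSeq (GRCm38.p6), which changed 0 symbols. Probe sets of a gene were averaged. A gene was counted where its higher value reached the floor. With 1 array per time there was no test; a fold of 1.5 was used for description. Alternatives were quantile normalization, removal of an intensity trend (loess, span 0.3), the brightest probe set per gene, no probe sets with multi-match suffixes, other floors and a fold of 2. Motifs were searched in RefSeq promoter windows. Python 3.11.15, numpy 2.4.6, pandas 2.3.3, statsmodels 0.14.6 and matplotlib 3.10.9 were used, and the steps were tested on simulated data.

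All 10 clock genes were named, with up to 4 genes of each other clock list that differed most at or above the floor and 13 further genes fixed by name. The cell type markers named, Wee1, Noct and Klf9 were chosen after their values were seen. The members and lists were chosen with earlier results of these data known.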

Additional observations from a re-analysis of the deposited data

How the results depend on the processing

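Under quantile normalization and removal of an intensity trend, each clock gene kept the sign of its difference. Each clock gene had 1 probe set, so using the brightest probe set could not change its value. Leaving out multi-match probe sets (suffix _s_at, _x_at or _a_at) could not change the values of the 8 clock genes it leaves either. Dbp and Cry1 drop out there. So do other named genes, among them Arntl, Rora, Usp2, Tsc22d3, Noct, Nr3c1, Srf, Tef, Klf9, Csnk1d and Slc4a1. The ranges over these settings were -0.50 to -0.45 for Dbp, 0.23 to 0.30 for Clock and -0.08 to -0.01 for Per1. With no floor, 1 clock gene (Per2) was at least 1.5-fold lower in place of 0, since genes near background then enter. With the floor at the 95th percentile of other-organ genes (6.80), 4 clock genes were counted, 3 of them lower. Per1, Clock and Dbp were also below that floor on both arrays. That floor moved the median of the other clock transcription factors to 0.26, by leaving out Hlf, Nfil3 and Ciart, that of the signal inputs to -0.33 and that of megakaryocyte markers to -0.090. With no floor the macrophage median was 0.022 and the lymphoid one 0.13, and without multi-match probe sets the lymphoid one was -0.0039. Those medians rest on fewer or dimmer genes. The other 117 of 124 alternative values moved by less than the robust SD of all differences or, for counts, stayed the same. The 117 include the clock gene values that the probe set settings could not change. No paired analysis was possible because each time had 1 array, and for the same reason no array could be left out. By the floor of 5.70, signal over background limits Per2, Per3 and Nr1d1 on both arrays and Dbp at 3 h. By the floor of 6.80 it also limits Per1, Clock and Dbp on both arrays.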
